A study of Rattus norvegicus with 42 samples.

Results

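The soleus of rats on day 3 of recovery from hindlimb unloading (R3) was compared with the soleus of rats on day 1 of that recovery (R1). The comparison covered all 9969 peaks off the mitochondrial chromosome, of 9971 in the deposited table, and 6 of the 42 libraries of the series. Cap analysis of gene expression (CAGE) sequences the capped 5′ ends of RNAs. A peak is a stretch of transcription start sites on 1 strand, and its tag count measures how many capped ends were found there. Peaks were not assigned to promoters. The soleus is a postural muscle made mostly of slow fibres. When the hindlimbs no longer carry weight it wastes, and on reloading it goes through a phase of stress, repair and regrowth, during which whole-muscle RNA also holds RNA of cells that enter the tissue.

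The animals were mature Wistar rats. R1 rats (animals U18, U20 and U21) had 7 days of tail suspension and 24 hours of free movement, and R3 rats (U4, U5 and U16) had the same unloading and 3 days of free movement. Each animal gave both its soleus and its fast extensor digitorum longus (EDL), and the EDL libraries of the same 6 rats are set beside the soleus below. Controls were active rats, and the other groups were unloaded for 1, 3 or 7 days (D1, D3 and D7) or recovered for 7 days (R7), each with 3 rats. RNA came from whole muscle, so fewer cells of a type and less RNA per cell cannot be told apart. The deposited files give peaks by position on Rnor_6.0 without gene names, and no annotation of that build was used here. Peaks are therefore given by chromosome, start, end and strand, and the labelled tissue was not checked against marker genes.

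The 6 libraries held 7628300 to 18200465 tags, of which 79.4% to 94.9% fell in the peaks of the table. The 3 R1 libraries and U4 of R3 were sequenced in lane 4, and U5 and U16 in lane 5, so lane and day are partly joined. Of the R1 libraries U18 stood apart, and of the R3 libraries U16 had the lowest share of tags in peaks (79.4%) and the highest share at positions with a single tag (19.5%, against 4.15% to 8.71% in the other 5). Values are in CPM (tag counts scaled to a common total) on TMM-scaled library sizes. Tests were made with edgeR's quasi-likelihood test, and a peak was called where the Benjamini-Hochberg adjusted p was below 0.05 and expression differed more than 2.38-fold. The spread between rats may include technical spread.

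At R3 the expression of 971 peaks was lower than at R1 and that of 272 peaks was higher. These are 9.87% and 2.76% of the 9840 peaks tested, and 12.6% together. The median log2 fold change was −2.49 among the peaks that fell (5.63-fold) and 2.03 among those that rose (4.07-fold), against 0.05 over all peaks tested. A change of over 4 on the log2 scale was fitted for 281 of the falls and 46 of the rises. In 31 falling peaks no tag was found in any R3 library, and no rising peak was empty in all R1 libraries. These counts cannot be set against each other. A level of 3 tags was 0.0624 CPM over the R1 group and 0.0959 CPM over the R3 group. Entry into the deposited table also differed between falls and rises, as given below. In 1234 of the 1243 called peaks the libraries of the groups did not overlap, and 41.5% of all peaks tested had no overlap. The remaining 129 peaks were too low to be tested.

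**Figure D1:**
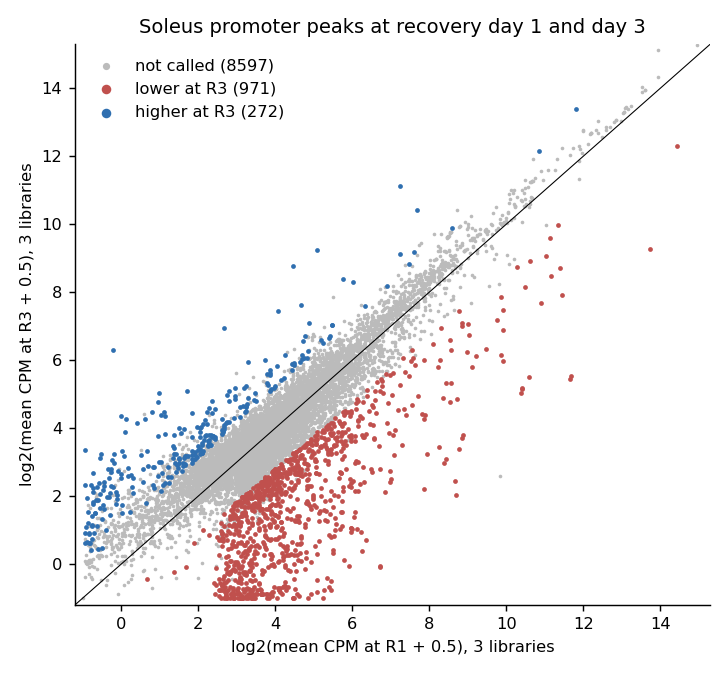
Mean expression of each tested peak in the soleus at R1 (x axis) and R3 (y axis), as log2(CPM + 0.5) over 3 libraries per group, with the line of equal values. The 971 peaks that were lower at R3 lie below the line and the 272 peaks that were higher lie above it, and 614 of the former are in the table through soleus R1 libraries alone.

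The deposited table keeps a peak only if its normalized signal reached 10 in at least 1 library of the series. For 614 of the 971 falling peaks (63.2%) this level was reached in no library but those of soleus at R1, against 10.1% of all peaks tested. For the rises, 10 of 272 reached it only in soleus at R3. Among the 8767 tested peaks that reached the level in a group other than these 2, 355 fell (4.05%) and 262 rose (2.99%), with median log2 fold changes of −1.88 and 2.04. A change of over 4 on the log2 scale was fitted for 24 of these 355 falls (6.76%) and 46 of these 262 rises (17.6%). Among the peaks whose place in the table did not rest on the libraries compared, the excess of falls over rises was thus smaller. Of the 46 steep rises 25 lay in 1 stretch of the plus strand of chromosome 10 (chr10:53632914-53843893), and outside it 21 rises and 24 falls of this kind were as steep.

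The falling peaks took a large share of the tags at R1. They held 21.1% of the tags of tested peaks in U18, 10.8% in U20 and 9.23% in U21, and 2.37%, 1.96% and 1.78% in U4, U5 and U16 at R3. U18 was the highest R1 library in 901 of the 971 falling peaks, compared with 4836 of all 9840 tested peaks. Without U18 there were 765 called peaks, 643 lower and 122 higher. The rising peaks moved the opposite way, from 0.660%, 1.22% and 1.32% of tags in U18, U20 and U21 to 3.40%, 2.76% and 3.53% in U4, U5 and U16. U21 was the highest R1 library in 189 of the 272 rising peaks (69.5%), against 24.9% of all peaks tested. U16 or U4 was the highest R3 library in 128 and 117 of the rising peaks (47.1% and 43.0%), against 35.8% and 33.2% of all peaks tested.

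Calls were also made without each library in turn, and the library left out was then compared with the opposite group. The calls made without U4, in which all R3 libraries came from the other lane, numbered 1045, and in 1038 of them (99.3%) U4 lay beyond all 3 R1 libraries on the called side. Over all peaks tested in that fit this was so for 63.4%. For the other 5 libraries the share was between 97.8% and 99.3%, against 57.5% to 62.3% of all peaks. The opposite group entered both the calls and this comparison. Of the 971 falling peaks of the main fit, 614 were in the deposited table through soleus R1 libraries alone. For such peaks a low level in a left-out R3 library was in part set by selection. These shares are therefore a description, and none was computed for the peaks that entered otherwise. Within lane 4, where U4 stands alone for R3 and was taken to vary like the other groups, 662 peaks were called, 469 lower and 193 higher, and with the lane as a block there were 768, 521 lower and 247 higher. R1 was in lane 4 only, so with lane as a block the fitted change also sets U4 alone against R1. These fits are thus not separate checks. All 28 peaks named below kept their direction in both, and some lost their call. Lost in both were chr8:55178466-55179112, chr6:146123854-146124110 and chr1:220265860-220265900 among the falls, and chr12:39958724-39959368, chr19:56674116-56676341, chr1:220136327-220136534 and chr10:53727161-53727410 among the rises. Within lane 4 alone chr19:29134812-29134927 and chr15:88692545-88692562 were lost too. With lane as a block the log2 fold change of chr10:53727161-53727410 went from 4.86 to 3.11, that of chr9:50762008-50762119 from 5.29 to 6.36, that of chr13:52662913-52663058 from 4.36 to 5.03 and that of chr12:36638354-36638891 from −2.68 to −3.33.

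Of the named falls, 6 were chosen by the size of the loss in CPM, and all 6 reached the table's minimum in groups other than R1 of soleus as well. The peak chr8:55178466-55179112 (plus strand) had 28329, 22283 and 15104 CPM in U18, U20 and U21 and 6619, 4399 and 4079 CPM in U4, U5 and U16. The lowest R1 value was above the highest R3 value, and the fold change was 4.35 (log2 −2.12, standard error 0.39, adjusted p = 0.00085). With lane as a block and within lane 4, where U4 alone stands for R3, the log2 fold change was −1.73 and the call was lost. The peak chr12:23840390-23841131 (minus strand) had 24438, 8111 and 8390 CPM at R1 and 507, 808 and 543 CPM at R3. Here U18 was far above the other R1 libraries, but these too were over every R3 library, and the peak fell by 4.46 on the log2 scale (standard error 0.49, adjusted p = 1.38e-05), or by 3.73 without U18.

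On chromosome 8, the minus-strand peak chr8:128711971-128712139 had 5264, 1653 and 1442 CPM at R1 and 209, 275 and 231 CPM at R3 (log2 fold change −3.55 ± 0.61 SE, adjusted p = 0.000556). The peak chr12:36638354-36638891 (plus strand) had 4810, 1517 and 1780 CPM at R1 and 268, 471 and 524 CPM at R3 (log2 fold change −2.68, adjusted p = 0.000573). In both, U18 was the highest library at R1, and without it the log2 fold changes were −2.70 and −1.97. The minus-strand peaks chr20:4877374-4879965 and chr20:2699756-2701913 had nearly the same counts in all 42 libraries, with a total difference of 1.38%. These values may come from 1 set of reads, which was not tested, and the source of each is uncertain. The first had 6928, 939 and 1972 CPM at R1 and 36.4, 58.0 and 42.6 CPM at R3 (log2 fold change −6.16, adjusted p = 3.16e-05), and the second fell by 6.22 (adjusted p = 3.36e-05). Without U18 they fell by 4.99 and 5.04.

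The 8 named falls chosen by fold were from a moderate level to 0 tags. All 8 reached the table's minimum in soleus R1 libraries alone, so their low level elsewhere and the size of their folds follow in part from the selection, and their values are a description. A bound on the fold was set against 3 tags over the R3 group (0.0959 CPM), which covers counting error only. The plus-strand peak chr13:36377453-36377829 had 49.8, 12.9 and 21.9 CPM in U18, U20 and U21 and no tag at R3, so it was at least 294-fold lower. Its level was also 0 in the controls and at R7, and its adjusted p was 9.03e-05. The peak chr6:146123854-146124110 (minus strand) had 84.9, 3.62 and 23.4 CPM at R1 and none at R3 (at least 389-fold lower). The R1 values of this peak differed widely, and so did those of chr1:220265860-220265900 (minus strand), with 56.9, 0.974 and 8.33 CPM at R1 (at least 230-fold lower, adjusted p = 0.0283). The latter lost its call without U18, U4, U5 or U16 (adjusted p between 0.0587 and 0.0663).

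The other 5 peaks of this kind were also at 0 tags in all R3 libraries. The minus-strand peak chr1:241962578-241962633 had 39.2, 14.3 and 11.1 CPM at R1 (at least 225-fold lower), and chr10:104679828-104680021 (minus strand) had 40.8, 13.1 and 10.6 CPM (at least 224-fold lower). The remaining 3, all on the minus strand, were chr19:29134812-29134927, chr2:252511967-252512051 and chr5:75587711-75587907, with R1 means of 15.9 ± 7.7, 13.7 ± 5.0 and 13.3 ± 8.9 CPM (SD, n = 3). They were at least 165-fold, 143-fold and 139-fold lower at R3. Over the controls, D7 and R7, the highest group mean of these 8 peaks was 0.395 CPM, for chr6:146123854-146124110 at R7. DESeq2 left 5 of these 8 above an adjusted p of 0.05, at 0.137 to 0.206. Without U18 the bounds of the 8 were 48.5-fold to 182-fold.

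Among the named rises, the largest gain in CPM was at chr12:39958724-39959368 (minus strand), with 1365, 4919 and 4461 CPM in U18, U20 and U21 and 9139, 11212 and 11595 CPM in U4, U5 and U16. The groups did not overlap, and the log2 fold change was 1.57 (standard error 0.41, adjusted p = 0.0101). U18 was the lowest library here, and without it the call was lost (log2 fold change 1.18, adjusted p = 0.0534). The peak chr9:73947803-73948932 (minus strand) had 1936, 1408 and 2220 CPM at R1 and 4939, 3608 and 5214 CPM at R3 (log2 fold change 1.31, adjusted p = 0.00309). It was close to the threshold, and it lay under it without U20 or U16 (log2 fold change 1.18 and 1.24) or without U4.

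The plus-strand peak chr1:198655606-198655966 rose 14.7-fold, from 124, 34.1 and 296 CPM to 3098, 912 and 2657 CPM (adjusted p = 0.0037). All R3 values were over 3 times the highest R1 value, and without U21 the log2 fold change went from 3.87 to 4.81. The peak chrX:106774783-106775086 (plus strand) rose 17.96-fold, from 12.7, 33.5 and 53.6 CPM at R1 to 852, 404 and 539 CPM at R3 (adjusted p = 1.09e-05). The peak chr7:2912306-2912737 (minus strand) rose 6.68-fold, with 185, 177 and 252 CPM at R1 and 1024, 1573 and 1504 CPM at R3 (adjusted p = 2.86e-05). The lowest R3 library was far above the highest R1 library. The peak chr19:56674116-56676341 (minus strand) had 229, 529 and 403 CPM at R1 and 847, 1148 and 854 CPM at R3 (log2 fold change 1.30, adjusted p = 0.0075), and it lost its call without U18 (adjusted p = 0.0508) or U5 (log2 fold change 1.14).

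Among called rises with a mean of at least 10 CPM, the largest fold was that of the 18 nt wide minus-strand peak chr15:88692545-88692562. It had 0.440, 0.487 and 0.150 CPM at R1 and 77.8, 58.6 and 98.2 CPM at R3, a 220-fold rise (log2 7.78, standard error 2.18, adjusted p = 0.0162). Without any 1 of the R1 libraries its adjusted p was 0.0536 to 0.0756. Its level varied widely between rats of 1 group as well, from 0 to 32.1 CPM in the controls (mean 10.9 CPM). It ranged from 0.384 to 55.0 CPM at R7 (mean 18.6 CPM) and from 44.2 to 92.2 CPM at D7 (mean 62.4 CPM). The minus-strand peak chr9:50762008-50762119 had 0.220, 0.695 and 0.548 CPM at R1 and 41.6, 5.597 and 12.3 CPM at R3 (39.0-fold, log2 5.29, adjusted p = 0.000105), and its control mean was 16.4 CPM. U4 was the highest library, and without it the log2 fold change was 4.13.

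Of the other 6 rises chosen by fold, 1 is given with its locus on chromosome 10 and 5 were of 20.2-fold to 24.3-fold. The peak chr9:73958278-73959013 (minus strand) had 11.1, 6.95 and 46.0 CPM at R1 and 305, 238 and 770 CPM at R3 (20.4-fold, log2 4.35, adjusted p = 0.00202), and its log2 fold change was 5.6 without U21 and 3.68 without U16. The peak chr13:52662913-52663058 (plus strand) had 3.37, 2.23 and 11.97 CPM at R1 and 194, 35.6 and 137 CPM at R3 (20.6-fold, log2 4.36, adjusted p = 0.0215). It was not called without U18, U20 or U4 (adjusted p of 0.0613 to 0.103), and its log2 fold change was 5.44 without U21. In both peaks the lowest R3 library was above the highest R1 library. The plus-strand peaks chr9:82752012-82752306 and chr20:5414399-5414478 rose 24.3-fold and 20.2-fold (adjusted p = 0.00147 and 0.00559), to R3 means of 14.1 ± 6.0 and 17.4 ± 7.0 CPM (SD, n = 3). The minus-strand peak chr1:220136327-220136534 had 23.8, 62.6 and 10.1 CPM at R3 and 3.74, 0.487 and 0.199 CPM at R1 (22.6-fold, log2 4.498, adjusted p = 0.0402), had a log2 fold change of 6.58 without U18 and 3.57 without U5, and lost its call without U20, U21, U4 or U5 (adjusted p of 0.0604 to 0.123).

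**Figure D2:**
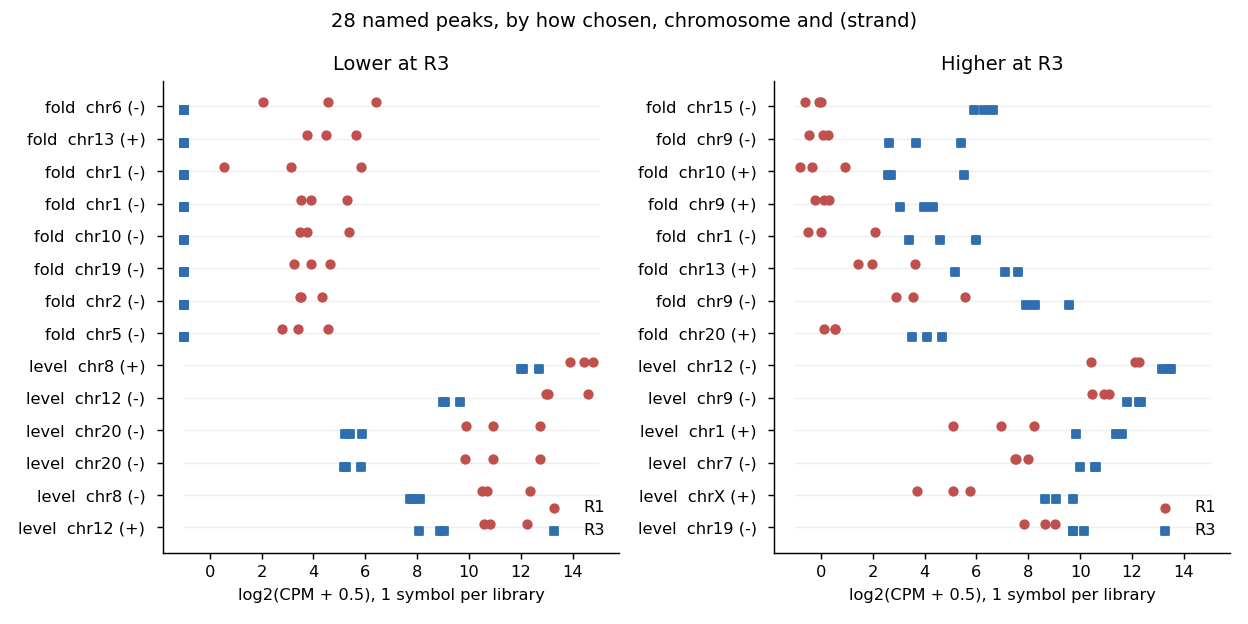
Expression of the 28 named peaks in each soleus library, as log2(CPM + 0.5), with R1 in circles and R3 in squares, labelled by whether the peak was chosen by fold or by level, with its chromosome and strand. The groups do not overlap in any of these peaks, as the choice required, and the 8 falls chosen by fold sit at 0 tags in all R3 libraries.

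Called peaks were joined into loci, and all peaks tested were not joined in this way, so the shares of loci have no background here. When called peaks of 1 strand within 10000 nt of each other were joined, the 272 rises formed 188 loci and the 971 falls formed 779. A single called peak made up 163 of the former (86.7%) and 669 of the latter (85.9%), and 3 or more made up 14 (7.45%) and 46 (5.91%). Loci of 4 or more called peaks numbered 8 among the rises and held 69 peaks (25.4% of the rises). Among the falls 13 such loci held 75 peaks (7.72% of the falls). These were few loci, and 21 of the 69 rising peaks lay in 1 of them.

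The locus with the most rising peaks was a stretch of the plus strand of chromosome 10, chr10:53711560-53738235, with 21 called peaks of 29 tested. Summed over the tested peaks of this stretch the level was 4.69, 1.60 and 15.95 CPM in U18, U20 and U21 and 62.4, 66.3 and 269 CPM in U4, U5 and U16. Every R3 library was above every R1 library, as the choice of the locus by its rises made likely, and U16 was about 4 times the other R3 libraries. In the controls the sums were 391, 602 and 103 CPM (mean 365.5 CPM), and at D7 they were 93.7, 49.1 and 53.6 CPM (mean 65.5 CPM). The stretch varied widely between rats of 1 group. At D3 the sums were 6.76, 300 and 264 CPM, with animal U9 of D3 below U21 of R1. The highest of its peaks at R1, chr10:53711560-53712069, did not share the difference of U16, since it had 2.05, 0.417 and 2.19 CPM at R1 and 21.9, 18.8 and 19.9 CPM at R3 (log2 fold change 3.67, adjusted p = 0.0139). The named peak chr10:53727161-53727410 did share it, with 0.293, 0.0695 and 1.40 CPM at R1 and 5.57, 5.97 and 44.9 CPM at R3 (29.0-fold, log2 fold change 4.86, adjusted p = 0.016). Without U16 its log2 fold change was 3.19 and its adjusted p 0.106. Without U21 the log2 fold change was 6.61, and the call was also lost without U18 or U20.

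Other runs of plus-strand peaks lay on both sides of this stretch, where runs were parted by gaps of over 10000 nt. Together the 5 runs between chr10:53632914 and chr10:53843893 held 113 peaks, of which 81 were tested, and 39 of these rose (48.1%, against 2.76% of all peaks tested) and 0 fell. In the first run, chr10:53632914-53643843, all 10 peaks tested rose, with summed levels of 1.03, 0.348 and 1.496 CPM at R1 and 29.0, 8.96 and 89.3 CPM at R3. This run reached 136, 256 and 31.7 CPM at R7, above its control mean of 13.03 CPM. The run with most peaks, chr10:53711560-53764563, had 23 rises in 54 tested peaks, and in all 54 the log2 fold change was above 0. In the run chr10:53778241-53800524, 3 of 14 tested peaks rose, and its summed level went from 3.08, 0.556 and 4.39 CPM at R1 to 23.4, 52.2 and 21.6 CPM at R3, with U5 the highest library. The order of the R3 libraries thus differed between the runs. The stretch was chosen after its values were seen, and whether tags of 1 peak could also map to another was not tested.

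**Figure D3:**
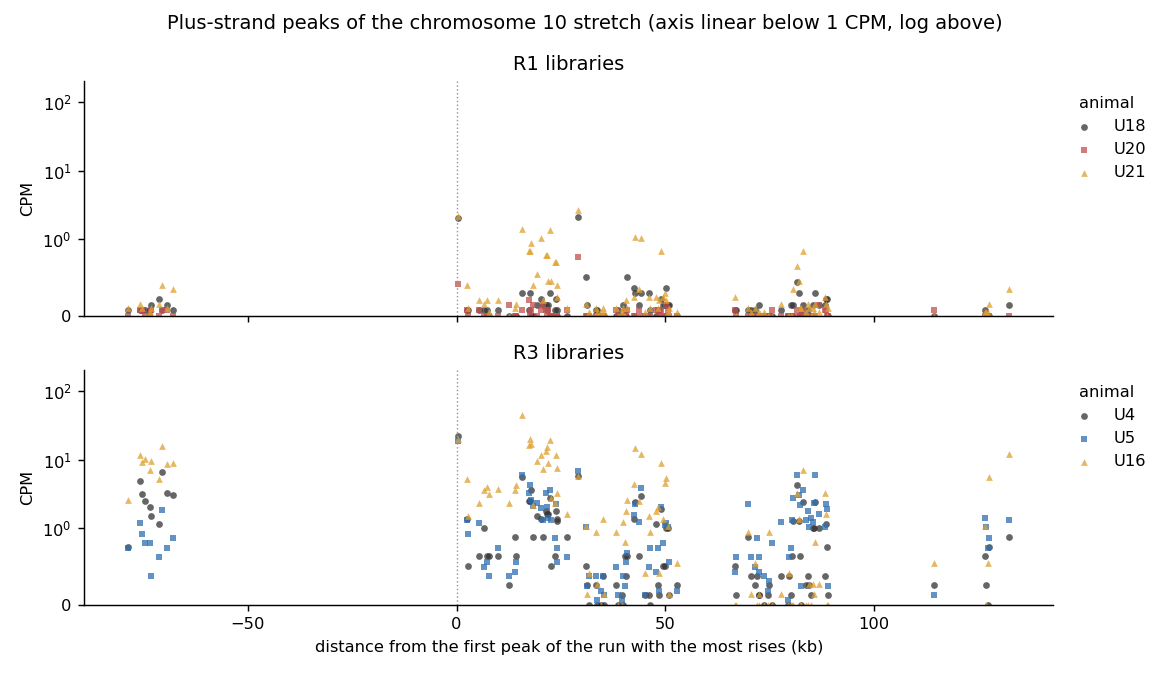
Level of each plus-strand peak of the chromosome 10 stretch in the R1 libraries (top) and R3 libraries (bottom), against its distance in kb from the first peak of the run with the most rises. At R1 no peak reaches 3 CPM, whereas at R3 peaks of 4 of the 5 runs lie above 1 CPM and U16 is the highest library in many of them.

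Next in number of rising peaks was chr7:29091397-29139560 (minus strand), with 13 of 16 tested. The log2 fold changes of its called peaks lay between 1.31 and 1.71. The summed level was 48.1, 65.4 and 78.7 CPM at R1 and 159, 161 and 202 CPM at R3. The control mean of 387 CPM was above all of these. At chr1:198655606-198658542 (plus strand) all 6 tested peaks rose, and at chr9:73937868-73959013 (minus strand) also all 6. The latter had 2000, 1462 and 2344 CPM at R1 and 5445, 3971 and 6263 CPM at R3.

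The falling locus with the most called peaks was chr4:56710804-56738725 (plus strand), where all 14 tested peaks fell, with log2 fold changes of −1.75 to −2.82. Its summed level was 4705, 1695 and 1167 CPM in U18, U20 and U21 and 321, 394 and 514 CPM in U4, U5 and U16. At chr5:57028361-57039447 (plus strand) all 7 tested peaks fell, from 3251, 728 and 855 CPM to 49.2, 45.0 and 47.4 CPM. In both loci the lowest R1 library was more than double the highest R3 library. The minus-strand loci chr6:135045020-135050425, chr6:135107489-135113023 and chr13:6344438-6347581 fell nearly alike, with all 8, 8 and 6 tested peaks called. Their summed R1 levels were 3165, 751 and 709 CPM in the first, 3172, 764 and 713 CPM in the second and 3015, 721 and 686 CPM in the third. A peak of each of these 3 loci had nearly the same counts in all 42 libraries (total differences of 1.35% to 2.87%), so they may stand for fewer sources than 3. Of the 693 falling peaks with at least 100 tags in every R1 library, 5 had such a partner within 5%, and of the 98 rising peaks with as many in every R3 library, 3 had 1.

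The tags of the called peaks were followed over the other groups of the study. The falling peaks held 1.69% to 1.98% of tags in the controls, 1.37% to 2.26% over D1, D3 and D7, and 1.79% to 2.61% at R7. The R3 values of 1.78% to 2.37% lay within the range of the other groups. For the 614 falling peaks that soleus R1 alone put in the table, the signal in every library of the other groups was under the table's minimum by selection. The 355 falling peaks that a group other than R1 or R3 of soleus put there held 8.34% to 18.97% of tags at R1, 1.57% to 1.87% in the controls, 1.28% to 2.11% over D1, D3 and D7, 1.64% to 2.23% at R3 and 1.65% to 2.49% at R7. The rising peaks held 3.15% to 3.75% in the controls, went down to 1.71% to 2.29% at D7, were lowest at R1 and reached 4.02% to 4.65% at R7. A large part of these sums was 1 peak, chr12:39958724-39959368. Its means were 15615 CPM in the controls, 6456 at D7, 3582 at R1 and 17937 at R7. The median log2 fold change of the rising peaks at R7 against the controls was −0.05. These peaks were chosen on the R1 and R3 libraries, so the levels in those 2 groups are a description.

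**Figure D4:**
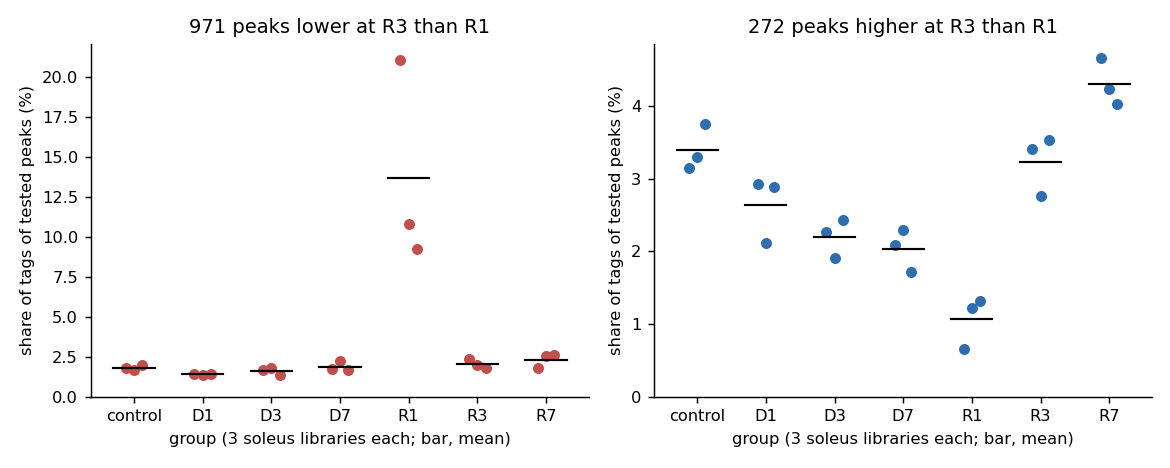
Share of the tags of tested soleus peaks that fell in the 971 peaks lower at R3 than R1 (left) and in the 272 peaks higher at R3 (right), for each of 3 libraries per group, with bars at the means. The left share is between 9.23% and 21.1% at R1 and at most 2.61% in the other groups. In those groups 614 of its peaks are under the table's minimum by selection. The right share declines through D7 to its lowest at R1, and is highest at R7. The peak chr12:39958724-39959368 makes up a large part of the right share.

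The comparisons of D7 and R7 with the controls used other animals. At D7, 2 of the 971 falling peaks were higher than in the controls and 0 lower, against 0.0711% and 0.0508% of all peaks tested. At R7, 48 of them (4.94%) were higher than in the controls and 6 lower, against 2.82% and 1.37% of all peaks. Among the 355 that other groups put in the table, 30 were higher (8.45%) and 6 lower (1.69%), against 2.89% and 1.53% of the 8767 tested peaks of that kind. Of the 272 rising peaks, 14 (5.15%) were higher and 5 (1.84%) lower at R7. The median log2 fold change at R7 against the controls was 0.24 in the falling and −0.05 in the rising peaks, and 0.01 over all tested.

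In the EDL of the same rats the same test called 1 of 9343 peaks (0.0107%), and 530 had an unadjusted p under 0.05. The library sizes in the labels were 3661830 to 12755458 for these EDL libraries and 9226668 to 21371527 for the soleus libraries. The median standard error was 0.390 in EDL and 0.334 in soleus. All EDL libraries of R1 were sequenced in lane 4 and those of R3 in lanes 5 and 6, so day and lane cannot be told apart in EDL. Of the 971 peaks that fell in soleus, 616 could be tested in EDL, and their median log2 fold change there was −0.07, against −1.89 for the same peaks in soleus. It was below 0 in 56.5% of them and in 51.4% of all peaks tested in both muscles. The peaks were called on the soleus values, and no EDL library reached the table's minimum in 614 of the 971, so the gap between the muscles is in part set by the choice of peaks. Of the 355 that other groups put in the table, 349 could be tested in EDL, with medians of −0.11 in EDL and −1.84 in soleus, and these too were chosen on soleus values. Of the 272 that rose, 239 could be tested, with a median of 0.23 in EDL and 1.90 in soleus, and 69.9% were above 0, against 48.6% of all. The only peak called in EDL, chr4:14002946-14003254 (plus strand), had 14.1, 18.8 and 22.3 CPM at R1 (U18, U20 and U21) and 2.34, 3.45 and 2.04 CPM at R3 (U4, U5 and U16), with a log2 fold change of −2.80 (adjusted p = 0.0076). In soleus it was not called (log2 fold change −0.94, adjusted p = 0.151). It was lost in EDL without U21, U4 or U16, and without U5 15 peaks were called, 14 of them higher. DESeq2 called 22 peaks in EDL, 17 higher and 5 lower, so both the number and the direction of the EDL calls depend on the tool and on 1 library.

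The difference between the muscles was tested in a fit over all 42 libraries. The change from R1 to R3 differed in 430 of 9945 peaks (4.32%), more negative in soleus in 322 and more positive in 108. Among the 8767 peaks that groups other than R1 and R3 of soleus put in the table, it differed in 254 (2.90%), more negative in 151 and more positive in 103. Each rat was also left out of both muscles, over all peaks tested. Without U18, 148 were called, and without U4, U16 or U5 there were 204, 259 and 269. Without U20 or U21 there were 313 and 343. With lane as a block there were 242, and in EDL lane and day are joined. The 108 that were more positive in soleus became 59 with lane as a block and also 59 with tag totals. They became 38, 44, 81, 36, 40 and 51 without U18, U20, U21, U4, U16 and U5. Of the named peaks, 11 were called. For several falls chosen by fold this test could not decide. At chr13:36377453-36377829 the difference was −10.87 with a standard error of 15642, and it was not called. Such peaks are among the 9945 tested, and the lack of a call does not show an equal change. The peak chr12:23840390-23841131, which fell by 4.46 in soleus, had a log2 fold change of −0.08 ± 0.32 (SE) in EDL, and the difference was −4.26 (adjusted p = 1.17e-05). For chr12:39958724-39959368, which rose by 1.57 in soleus, the change was −1.67 ± 0.66 in EDL (difference 3.31, adjusted p = 0.0139). For chr15:88692545-88692562 the log2 fold change was 7.78 in soleus and 7.57 ± 2.02 in EDL, where it was not called (adjusted p = 0.488). For chr20:5414399-5414478 it was 4.34 and 4.05 ± 1.2 (adjusted p = 0.621 in EDL), and for chr9:50762008-50762119 it was 5.29 and 3.67 ± 0.99 (adjusted p = 0.488 in EDL). The differences of 0.28 ± 3.40, 0.33 ± 1.78 and 1.67 ± 1.43 (SE) were not called (adjusted p = 0.99, 0.961 and 0.593), which does not show that the changes were equal.

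**Figure D5:**
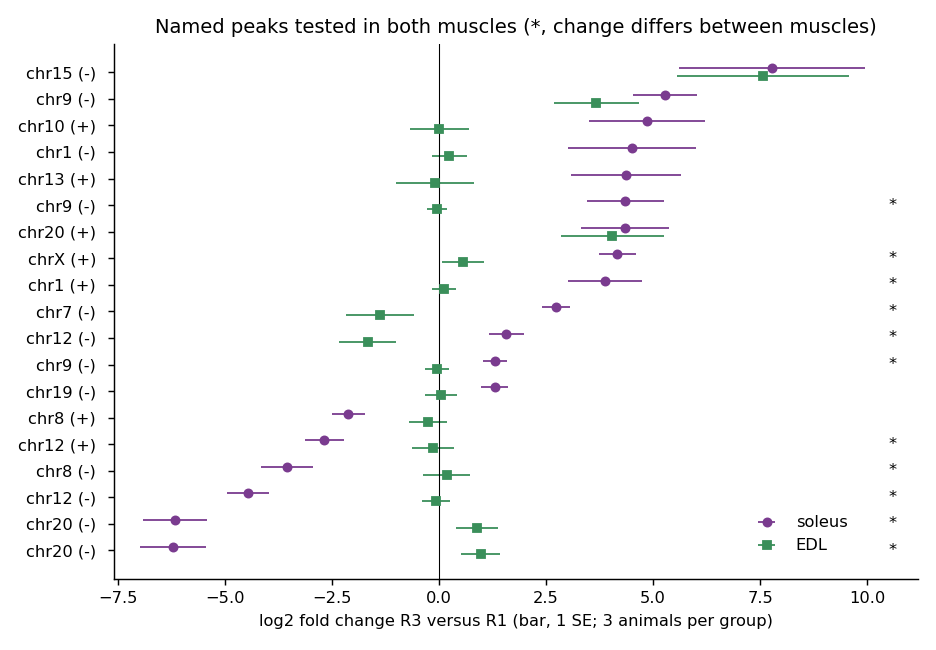
Log2 fold change R3 versus R1 in soleus (circles) and EDL (squares) with bars of 1 SE, for the named peaks tested in both muscles, labelled by chromosome and strand. An asterisk marks the 11 peaks whose change differed between the muscles, and most EDL values lie near 0. The EDL values of chr15 (7.57), chr20 on the plus strand (4.05) and the chr9 peak at 3.67 are far above 0 with wide bars, and none of them was called in EDL.

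Start sites next to each other could also change by unequal amounts. Peaks of 1 strand within 1000 nt were grouped, which gave 605 groups of 1769 peaks, and each peak was tested against its group. The test called 27 peaks (1.53%) in 27 groups, 25 of them relatively lower and 2 relatively higher at R3. Groups other than R1 and R3 of soleus put 3 of the 25 and both of the 2 in the table. Without U5, 17 were called, and with groups joined over gaps of up to 300 nt the test called 14 of 1182 peaks, 13 relatively lower and 1 relatively higher. Falling peaks were found in such groups in 23.8% and rising peaks in 32.7%, against 17.98% of all peaks tested.

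The 4 groups with the largest differences are given here, and in all 4 the peak called had reached the table's minimum in soleus R1 libraries alone, so its low level at R3 follows in part from the selection. The first was on the minus strand of chromosome 15. The peak chr15:28315331-28315697 had 212, 54.5 and 47.0 CPM at R1 and 1.01, 0.311 and 0 CPM at R3, and fell by 7.49 on the log2 scale relative to its group (adjusted p = 5.55e-13). Its neighbour chr15:28314373-28314684 had 112, 92.1 and 105 CPM at R1 and 180, 152 and 107 CPM at R3 and was not called (log2 fold change 0.50, adjusted p = 0.202). The first was thus above the second in U18 alone, and far below it in all R3 libraries. In the plus-strand group of chromosome 17, chr17:6840147-6840290 had 74.4, 10.6 and 14.6 CPM at R1 and 0.126, 0.0622 and 0 CPM at R3. These are 1461 and 2 tags, a ratio of 475 with a 95% exact interval of 131 to 3929 for counting error only, and the adjusted p of the relative fall was 2.23e-06. Its neighbour chr17:6840349-6840762 had 44.8, 31.9 and 33.3 CPM and then 18.1, 22.1 and 19.2 CPM.

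The remaining pair of named groups had a peak without tags at R3. The minus-strand peak chr10:61577956-61578022 had 17.8, 5.42 and 3.39 CPM at R1 beside chr10:61577133-61577523, which had 56.4, 38.9 and 41.8 CPM at R1 and 31.2, 37.1 and 34.5 CPM at R3. The minus-strand peak chr11:70966499-70966616 had 20.7, 3.55 and 3.39 CPM at R1, beside chr11:70966647-70967240 with 106, 76.1 and 66.5 CPM at R1 and 40.6, 28.2 and 34.9 CPM at R3. The adjusted p of both relative falls was 0.000608. In both groups the lesser peak was lost at R3 and the main peak was still found in all R3 libraries. The main peak on chromosome 11 was itself a called fall (log2 fold change −1.26, adjusted p = 0.00125). The main peak on chromosome 10 was not called (log2 fold change −0.41, adjusted p = 0.221).

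Within peaks, the position of the strongest start site was mostly the same. Of the 28 named peaks 14 had at least 100 tags in both groups, and in all 14 the strongest position was the same at R1 and R3. In chr12:23840390-23841131, for example, position 23840982 held 89.3% of tags at R1 and 87.8% at R3, although the peak fell 22.03-fold. Over all called peaks with as many tags, the strongest position was the same in 345 of 480 falling peaks (71.9%) and 135 of 161 rising peaks (83.9%), against 81.3% of 8541 tested peaks. The median peak width was 208 nt in the falling, 204 nt in the rising and 208 nt in all peaks tested.

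Peaks facing away from each other were examined too. There were 325 pairs of tested peaks in which a minus-strand peak lay within 1000 nt upstream of a plus-strand peak. A falling peak was present in 34 of them (10.46%) and both peaks fell in 7. Of the 650 peaks in these pairs 6.31% fell, against 9.87% of all peaks tested. In the 27 pairs with 1 falling peak, the partner had a log2 fold change below 0 in 16 (59.3%), with a median of −0.20, against 42.2% and a median of 0.13 over the peaks of all pairs. Both peaks rose in 2 of the 7 pairs with a rising peak, and no pair had called peaks of opposite direction.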

How the data were processed

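nAnT-iCAGE libraries of soleus and EDL were made from 21 rats (14 groups of 3), and both muscles of a rat carry its number in the labels. The authors trimmed reads with Trimmomatic (0.38 in the submitters' processing notes), mapped them to Rnor_6.0 and aggregated them with PromoterPipeline. The mapper behind the deposited table is uncertain, since the study's methods name STAR, allowing up to 20 loci per read, while the submitters' processing notes list BWA and HISAT2 with no role. They deposited whole-number counts of tags per start position for each library, and for the series raw counts and a normalized signal over 9971 peaks. The deposited normalized signal was used only to see which groups put a peak in the table (lowest peak maximum 10.0).

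Tests used edgeR 4.0.16 in R 4.3.3 (filterByExpr, TMM, quasi-likelihood test). The 21 soleus libraries shared 1 fit with 14 residual degrees of freedom, the EDL libraries another, and the muscle difference was an interaction over 42 libraries. The standard error was the size of the log2 fold change divided by the square root of F. Start usage was tested with diffSpliceDGE. Scripts were tested on simulated data first. Python 3.11.15 was used for the rest.

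Between the muscles of a rat, deviations from the group means correlated with r from −0.336 to 0.579 (over 0.1 in 15 of 21 rats). The pairing rests on the animal number.

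Named peaks were, among called peaks off MT without overlap whose R1 or R3 mean was 10 CPM or more, the 8 largest falls and rises by log2 fold change, the 6 largest of each by CPM, and the 4 start-usage groups with the largest differences. The comparison and these lists were chosen with earlier results of these data known. Marker and pathway lists were not used here, since peaks were not assigned to genes. The 2 MT peaks were left out of counts. Alternatives are given in the closing section.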

Additional observations from a re-analysis of the deposited data

Results flagged for a closer look

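The change from R1 to R3 was compared between the muscles by a test of the difference itself, and 430 peaks differed. Of the named peaks, the difference in log2 fold change (soleus minus EDL) was called for 11, and 5 of these were more negative in soleus. It was −7.07 for chr20:2699756-2701913, −6.92 for chr20:4877374-4879965, −4.26 for chr12:23840390-23841131, −3.59 for chr8:128711971-128712139 and −2.40 for chr12:36638354-36638891. The chr20 peaks had nearly the same counts in all libraries and may come from 1 set of reads, which was not tested. Those more positive in soleus were chr9:73958278-73959013 (4.47), chr7:2912306-2912737 (4.18), chr1:198655606-198655966 (3.83), chrX:106774783-106775086 (3.67), chr12:39958724-39959368 (3.31) and chr9:73947803-73948932 (1.46). In EDL the log2 fold changes of these 11 peaks lay between −1.67 and 0.98, and none was called there.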

How the results depend on the processing

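All 28 named peaks kept their direction under each alternative that tested them. Within lane 4 and with lane as a block, R3 of soleus was set against R1 through U4 alone. With lane as a block, 768 soleus peaks and 242 muscle differences were called (1243 and 430 before), and 662 soleus peaks within lane 4. The number of soleus calls stayed within 1.5 times under DESeq2 (1320), RLE factors (1220), tag totals (1314), no filter (1248), the 6 libraries alone (1207), thinning (1107) and a log2 threshold of 1 (1530). With tag totals, the median over all peaks went from 0.05 to −0.10 on the log2 scale, and the share of rises among calls was 14.8%, against 21.9%. With tag totals chr9:73947803-73948932 and chr19:56674116-56676341 lost their call (log2 fold changes of 1.17 and 1.12), and in the 6 libraries alone chr12:39958724-39959368 did (adjusted p = 0.0571). Leaving out 1 library gave 765 (without U18) to 1371 soleus peaks, 17 (without U5) to 27 start-usage peaks, 0 to 15 EDL peaks and 148 (without U18) to 343 muscle differences. The counts of 0 in EDL came without U21, U16 or U4, by edgeR, with 385, 529 and 381 peaks at an unadjusted p under 0.05. In EDL, DESeq2 called 22 peaks, 17 of them higher, and the cause was not tested. Start usage with a gap of 300 nt, where fewer peaks could be grouped (1182), gave 14. With the animal as a replicate block, 452 muscle differences were called. The comparisons between days are between different animals, so no other paired fit was made. Without both U18 and U16, an alternative chosen after seeing the data, 628 soleus peaks were called, 533 lower and 95 higher, and 10 named peaks lost their call. Depth limits the falls to 0 tags, whose folds are bounds.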

Other observations

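A peak outside the called set, chr20:4958731-4958752 (minus strand), was singled out after its values were seen, as the only tested peak with a mean of at least 100 CPM at R1 or R3 and a log2 fold change over 4 that was not called. It had 2452, 291 and 0.299 CPM in U18, U20 and U21 and 0.126, 16.6 and 0 CPM in U4, U5 and U16 (edgeR log2 fold change −7.27 with a standard error of 2.67, adjusted p = 0.069). The R1 libraries of this 22 nt wide peak differed by more than the groups did, and U21 was below U5.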
